A study of Mus musculus with 6 samples.

Results

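Cell cycle and DNA replication genes were examined in sensory neurons of the dorsal root ganglia, sorted from mouse embryos. These ganglia hold the cell bodies of the sensory neurons that serve skin, muscle and viscera. The set comprised 42 genes chosen by symbol, out of 41388 genes listed in each library, and all 42 were found and passed the filter on low counts. They were read in 5 roles: 10 genes of DNA replication and nucleotide supply, 17 mitotic genes, 9 regulators of the G1 phase and of entry into S phase, the neuronal kinase gene Cdk5, and 5 genes that restrain the cycle (4 inhibitors of cyclin-dependent kinases and the retinoblastoma gene Rb1). Cells were sorted for EGFP, a fluorescent protein, from embryos that combined a floxed Ret allele carrying EGFP with a Cre recombinase knocked into Scn10a, the gene of the Nav1.8 sodium channel. How many copies of the altered Ret allele an embryo carried is not stated in the labels. All libraries came from C57BL/6 embryos at 18.5 dpc (days post coitum) with the genotype RetFloxedEGFP and Scn10a<tm2(cre)Jnw>, except that the genotype field of male C reads RetFloxedEGFP alone while its title names the Cre as well. There were 3 female libraries and 3 male libraries, named A, B and C within each sex. The ganglia were of lower thoracic to first sacral levels, a range not given for male C. Each library pooled 40 ganglia from 2 embryos, apart from male B with 60 ganglia from 3 embryos and male C with 20 ganglia from 1 embryo. No library without Cre and no EGFP-negative library was used here, so levels were compared between genes and between libraries.

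A dividing cell passes through G1, copies its DNA in S phase, and separates its chromosomes in mitosis. Cyclins activate cyclin-dependent kinases (CDKs) to drive each step, E2F transcription factors switch on the replication genes, and the DREAM and MuvB complexes act through the CHR promoter element on the mitotic genes. Sensory neurons leave the cycle when they differentiate. Inhibitors of the Cip/Kip and INK4 families bind cyclins and CDKs, and pocket proteins such as Rb1 hold E2F factors back. The satellite glia, Schwann cell precursors and vessel cells that surround the neurons in an embryonic ganglion can still divide.

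RefSeq promoter windows, 250 bases before to 50 bases after an annotated start on build GRCm38.p6, were matched by symbol for 34 of the 42 members. Windows were searched on both strands for an E2F motif, for the CHR motif and for the CCAAT box, whose letters are its name. The E2F motif was taken as the letters TTCCCGC, as the variant spelled TTGGCGC, as a variant that reads TTCGCGC, or as the remaining variant written TTGCCGC. The CHR motif was taken as TTTGAA, or with another central base as TTTAAA. Overlapping matches were each counted, and a CCAAT box read on the opposite strand can share letters with TTGGCGC. The E2F motif lay in 6 of 9 replication promoters (66.7%) and in 3 of 15 mitotic promoters (20.0%), beside 19.2% of the 11055 tested genes that have a window. The CHR motif lay in 14 of 15 mitotic promoters (93.3%) and in 3 of 9 replication promoters (33.3%), beside 22.5% of tested genes. The CCAAT box was frequent in both roles, in 8 of 9 replication promoters (88.9%) and 14 of 15 mitotic promoters (93.3%), beside 42.7% of tested genes. A CHR motif and a CCAAT box occurred together in 13 of 15 mitotic promoters (86.7%) and 3 of 9 replication promoters (33.3%), beside 9.24% of tested genes. The difference between the roles was not tested. Bub1 was the mitotic member whose window held no CHR motif, and Birc5 the one that held no CCAAT box. Over all 32851 windows of this length in the table, whatever the gene, 9.57% held the E2F motif, 27.6% the CHR motif and 37.4% the CCAAT box. These letters describe the windows and are not evidence that a factor is bound there.

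Below are 5 windows, written 5′ to 3′ on the strand of the gene, with every match to any of these motifs in capitals. Mki67, Top2a and Cdk1 show CHR motifs together with CCAAT boxes, Mcm6 shows E2F motifs, and Cdkn2d is the inhibitor with the highest level. These windows are not typical of their roles in every motif. Mki67 and Cdk1 are among the 3 mitotic promoters with an E2F motif. Mcm6 has the most E2F matches of the replication windows, while Mcm2, Pcna and Tyms have none.
Mki67, chr7:135716330-135716629, minus strand: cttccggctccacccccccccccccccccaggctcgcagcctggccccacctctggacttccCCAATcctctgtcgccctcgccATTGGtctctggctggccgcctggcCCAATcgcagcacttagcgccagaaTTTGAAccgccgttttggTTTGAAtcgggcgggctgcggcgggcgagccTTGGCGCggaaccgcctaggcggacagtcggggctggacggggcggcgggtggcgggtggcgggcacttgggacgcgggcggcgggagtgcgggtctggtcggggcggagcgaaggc
Top2a, chr11:99024140-99024439, minus strand: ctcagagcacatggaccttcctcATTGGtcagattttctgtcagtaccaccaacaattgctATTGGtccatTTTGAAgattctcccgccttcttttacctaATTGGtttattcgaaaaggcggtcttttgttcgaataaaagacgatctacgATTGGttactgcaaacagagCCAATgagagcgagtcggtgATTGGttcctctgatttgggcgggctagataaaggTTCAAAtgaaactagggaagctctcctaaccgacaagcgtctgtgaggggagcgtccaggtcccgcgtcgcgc
Cdk1, chr10:69352863-69353162, minus strand: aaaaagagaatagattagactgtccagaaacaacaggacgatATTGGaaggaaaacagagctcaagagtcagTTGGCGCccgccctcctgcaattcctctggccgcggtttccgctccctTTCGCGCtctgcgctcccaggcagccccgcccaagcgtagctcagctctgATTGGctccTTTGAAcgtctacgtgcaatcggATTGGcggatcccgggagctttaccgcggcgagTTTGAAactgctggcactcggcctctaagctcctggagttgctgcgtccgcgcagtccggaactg
Mcm6, chr1:128359656-128359955, minus strand: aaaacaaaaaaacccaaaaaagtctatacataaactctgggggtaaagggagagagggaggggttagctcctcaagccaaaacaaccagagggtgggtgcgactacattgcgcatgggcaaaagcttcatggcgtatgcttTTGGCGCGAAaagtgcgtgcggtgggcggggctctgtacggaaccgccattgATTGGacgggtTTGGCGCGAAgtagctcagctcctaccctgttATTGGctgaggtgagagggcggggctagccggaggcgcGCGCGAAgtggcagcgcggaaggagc
Cdkn2d, chr9:21291160-21291459, minus strand: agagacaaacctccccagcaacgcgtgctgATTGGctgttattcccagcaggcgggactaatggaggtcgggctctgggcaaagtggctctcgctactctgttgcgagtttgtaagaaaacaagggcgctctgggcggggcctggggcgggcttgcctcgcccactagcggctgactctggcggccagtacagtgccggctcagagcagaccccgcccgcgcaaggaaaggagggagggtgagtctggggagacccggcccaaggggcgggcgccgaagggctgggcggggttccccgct
The Mki67 window held 2 CHR motifs, 3 CCAAT boxes and 1 E2F motif, and the Top2a window 2 CHR motifs and 6 CCAAT boxes. In the Cdk1 window all 3 motifs were present. The Mcm6 window held 5 E2F matches and no CHR motif, and the Cdkn2d window held 1 CCAAT box and neither of the other motifs.

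**Figure D1:**
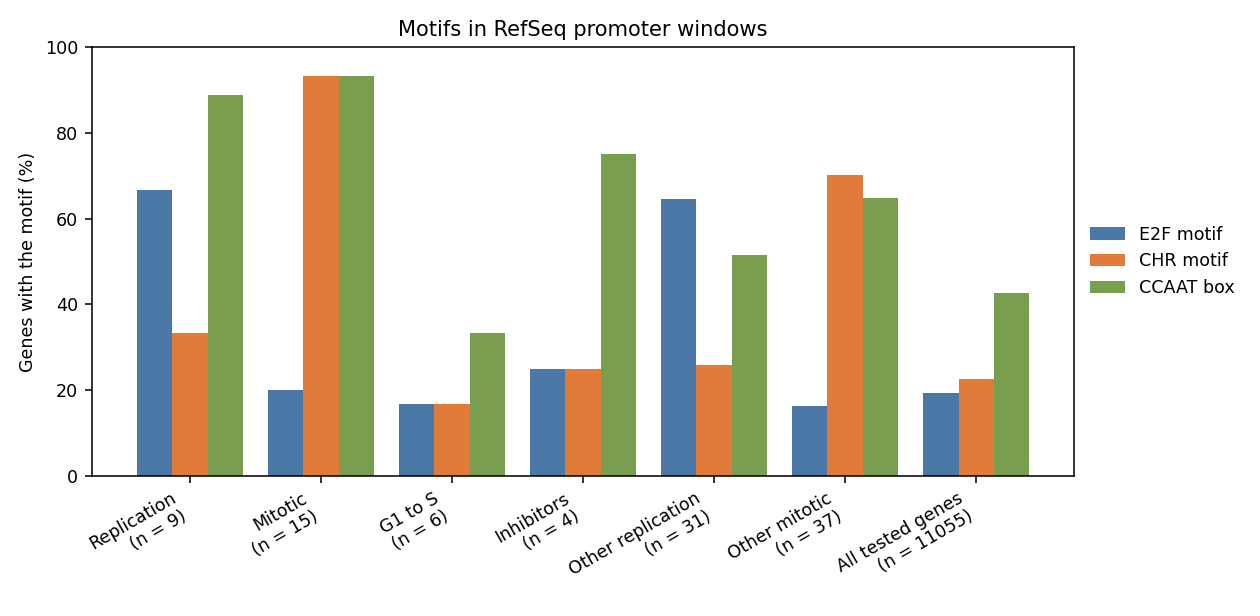
Share of genes (vertical axis, %) whose RefSeq promoter window holds an E2F motif, a CHR motif or a CCAAT box, by gene group, with the number of genes that have a window. Mitotic members stand at 93.3% for the CHR motif and replication members at 66.7% for the E2F motif, beside 22.5% and 19.2% of all tested genes.

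Libraries held 15693013 to 24033601 counted reads, and the members had between 8 and 4902 reads per library. RPKM, the read count scaled by gene length and sequencing depth, was recomputed with library sizes normalised by the TMM method, and it allows levels to be compared between genes. The 12 neuronal markers of the sort were each at a mean of 24.1 RPKM or more. Of 20 markers of satellite glia and Schwann cells all passed the filter and 2 had a mean below 1 RPKM. Their summed level was 1052 to 1214 RPKM in female and 1115 to 1265 RPKM in male libraries. The sum was 157 to 194 RPKM for 12 fibroblast and meningeal markers, 17.0 to 20.3 RPKM for 14 endothelial and mural markers and 7.35 to 12.5 RPKM for 12 immune markers, with 11 of 14 and 11 of 12 members of the last pair of lists below 1 RPKM. A list of 10 erythroid markers, led by the haemoglobin genes, summed to 58.3 to 249 RPKM in 5 libraries and to 1278 RPKM in male A, above the glial sum of that library. No marker in any of these lists was at 0 in all libraries. How much of each member's RNA came from neurons and how much from other sorted cells was not tested, and fewer cells of a type cannot be told apart from less RNA per cell in these bulk libraries.

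By their medians, the 4 roles with several members kept the same order of level in each library, with genes that restrain the cycle highest and mitotic genes lowest. The single gene Cdk5, at 6.43 ± 0.25 on the log2(RPKM + 0.1) scale, lay above the median of each of them. The median over members of log2(RPKM + 0.1) was 4.20 ± 0.32 for the restraining genes, 2.27 ± 0.24 for the replication genes, 0.93 ± 0.24 for the G1 and S phase regulators and 0.55 ± 0.13 for the mitotic genes (SD, n = 6 libraries). The same median over all 15026 tested genes was 1.98 ± 0.05. The restraining genes lay 3.65 ± 0.25 log2 units above the mitotic genes and 1.93 ± 0.41 above the replication genes. The replication genes lay 1.73 ± 0.28 log2 units above the mitotic genes. Each of these differences had the same sign in 6 of 6 libraries. The G1 and S phase regulators lay only 0.38 ± 0.23 log2 units above the mitotic genes, also in 6 of 6 libraries. These medians do not describe every member. The median restraining gene was Cdkn1b in each library, with Rb1 and Cdkn2c below it at means of 3.81 and 0.258 RPKM. The replication median fell between 5 genes at means of 8.08 to 14.7 RPKM and 5 at 1.88 to 2.53 RPKM. The lower 5 lay within the range of the mitotic means, 0.240 to 3.43 RPKM. A mean of 5 RPKM or more was reached by 5 of 10 replication genes, 0 of 17 mitotic genes, 2 of 9 G1 and S phase regulators, Cdk5, and 3 of 5 restraining genes, beside 44.8% of all tested genes. These comparisons set different genes beside each other, so they describe levels and were not tested.

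**Figure D2:**
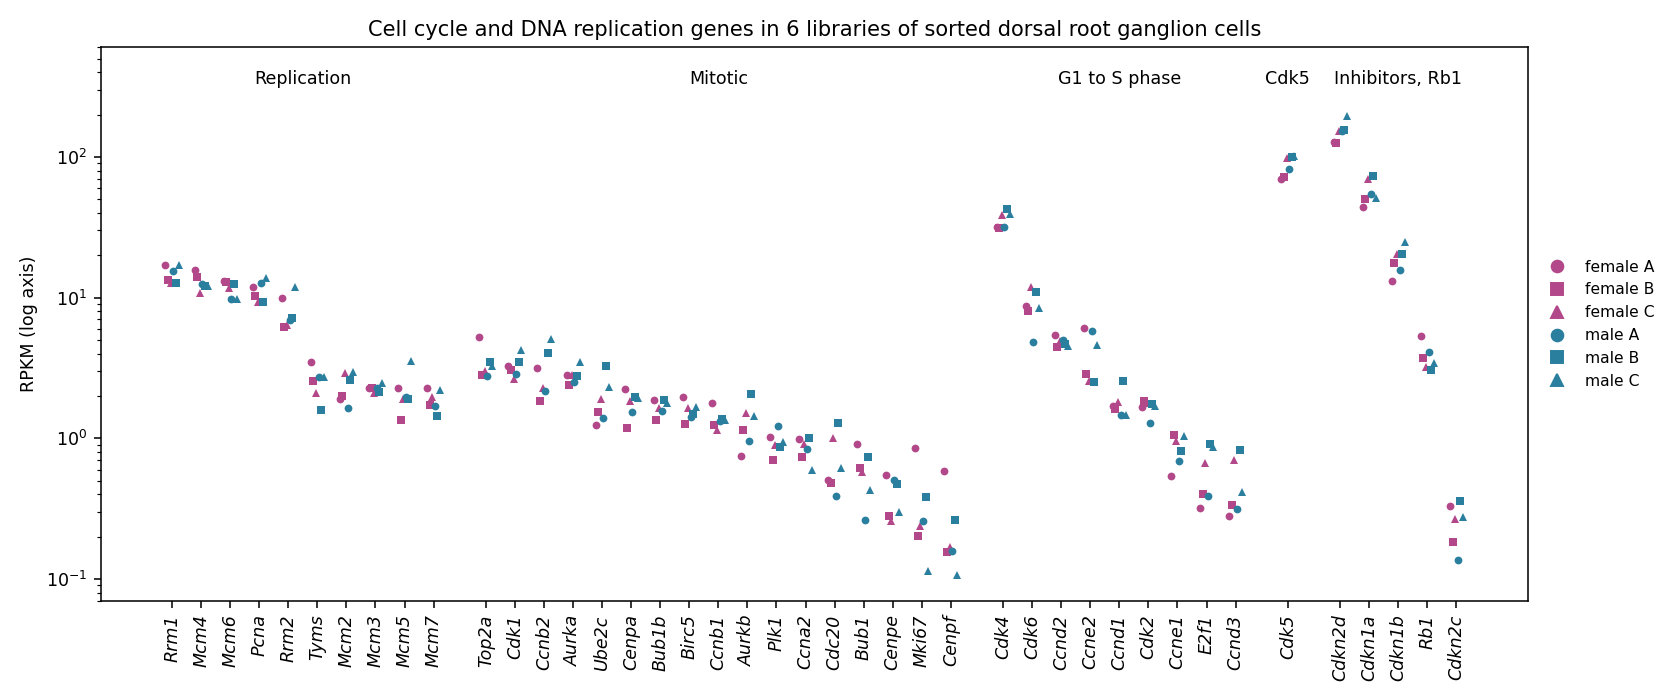
Level of each of the 42 members (RPKM, logarithmic vertical axis) in the 3 female and 3 male libraries, grouped by role and ordered by mean. Cdkn2d, Cdk5 and Cdkn1a lie highest, at means of 151, 87.1 and 57.2 RPKM, and no mitotic gene reaches a mean of 5 RPKM.

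Restraint of the cycle was represented mainly by 3 inhibitor genes. Cdkn2d, which encodes the INK4 inhibitor p19 of CDK4 and CDK6 (ENSMUSG00000096472, chromosome 9, 21288463 to 21291209, build GRCm38.p2), had 128, 125 and 152 RPKM in the female libraries A, B and C, and 152, 155 and 197 RPKM in male A, B and C. Its mean of 151 ± 25.7 RPKM (SD, n = 6) was higher than that of 97.5% of tested genes. The highest library was male C, and the sexes overlapped. Its family member Cdkn2c, which encodes p18, was at 0.328, 0.183 and 0.266 RPKM in the female and 0.136, 0.357 and 0.275 RPKM in the male libraries, on 8 to 23 reads per library. Cdkn2d therefore stood between 390 and 1110 times as high as Cdkn2c, depending on the library.

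Cdkn1a and Cdkn1b encode the Cip/Kip inhibitors p21 and p27. Cdkn1a had 44.0, 49.9 and 70.0 RPKM in the female libraries A, B and C, and 54.8, 73.6 and 50.9 RPKM in male A, B and C. Male B and female C were its highest libraries, and these were also the highest for the summed immediate early genes, at 467 and 474 RPKM against 66.1 to 283 RPKM in the others. These libraries were also highest for genes rich in G and C bases (GC content). By their median, the 4979 tested genes of highest GC content lay 0.20 and 0.21 log2 units above their mean over libraries there. They lay at -0.22 to 0.07 in the others. The Cdkn1a transcript has a GC content of 54.4%. With each library's GC trend removed, male B and female C stayed highest for Cdkn1a, at 0.26 and 0.17 log2 units, against 0.39 and 0.32 before. The parts of the immediate early response and of GC content in the Cdkn1a level were not tested. Cdkn1b had 13.2, 17.6 and 20.2 RPKM in the female and 15.7, 20.6 and 24.8 RPKM in the male libraries. It was lowest in female A and highest in male C. Rb1, the pocket protein gene that restrains E2F factors, had 5.35, 3.75 and 3.21 RPKM in the female and 4.08, 3.07 and 3.43 RPKM in the male libraries. Of the exonic bases of Rb1, 14.9% are shared with genes on the opposite strand. Whether reads were counted by strand is not stated, so reads from the opposite strand cannot be told apart.

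A wider list held other inhibitors and pocket proteins, and also MuvB subunits, E2f2 to E2f8, Tfdp1 and Tfdp2, and the Btg genes (22 listed, 20 tested). Its median of log2(RPKM + 0.1) was 1.62 ± 0.06, below the 1.98 of all tested genes. In it 6 genes reached 5 RPKM (27.3%, against 44.8% of all tested genes). The highest were Rbbp4, a chromatin protein of the MuvB and DREAM complexes, at 34.3 ± 3.72 RPKM and Btg2, an antiproliferative gene, at 32.3 ± 17.2 RPKM (SD, n = 6). Btg2 ranged from 10.9 RPKM in male A to 52.3 RPKM in male B. Of 14 genes known as targets of p53, which also activates Cdkn1a, 12 were tested. In this list 5 genes reached 5 RPKM (35.7%, against 44.8% of all tested genes). The death effector gene Bax led at 83.3 ± 15.7 RPKM and the kinase gene Plk2 followed at 69.1 ± 13.5 RPKM.

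Cdk5 was the most abundant of the 5 CDK genes in the set. Its product works with the activators p35 and p39 in neuronal migration and axon growth rather than in division. Cdk5 (ENSMUSG00000028969, chromosome 5, 24418250 to 24423530) had 69.8, 71.7 and 98.0 RPKM in the female libraries A, B and C, and 82.2, 99.7 and 101 RPKM in male A, B and C. The level was higher in female C, male B and male C than in the other libraries, with overlap between the sexes. It exceeded the mitotic kinase gene Cdk1 by 21.4 to 37.1 times and Cdk4 by 2.21 to 2.59 times over the 6 libraries. Among 7 listed partner genes, Cdk5rap3 was at 12.3 ± 2.13 RPKM, and Cdk5r1, the p35 gene, at 11.6 ± 1.67 RPKM (SD, n = 6). The p39 gene Cdk5r2 was at 2.11 ± 0.349 RPKM.

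Genes of the G1 phase were uneven. Cdk4, whose kinase pairs with D cyclins, had 31.6, 31.1 and 38.5 RPKM in the female and 31.7, 42.7 and 39.02 RPKM in the male libraries, with 18.6% of its exonic bases shared with the opposite-strand gene Tspan31. Cdk6, which has the same partners, had 8.78, 7.98 and 11.9 RPKM in the female and 4.85, 10.9 and 8.41 RPKM in the male libraries. Male A was lowest for Cdk6. The D cyclin genes were low beside Cdk4. They were also below Cdk6 in each library, except that Ccnd2 in male A, at 5.01 RPKM, exceeded Cdk6 at 4.85 RPKM.

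Ccnd2 led the D cyclins at 5.43, 4.42 and 4.91 RPKM in the female libraries A, B and C, and 5.01, 4.70 and 4.55 RPKM in male A, B and C, and it was among the steadiest members, with a highest value 1.23 times the lowest. Ccnd1 averaged 1.76 ± 0.406 RPKM and was highest in male B at 2.545 RPKM. By mean RPKM Ccnd3 was the lowest gene of this role, at 0.280, 0.336 and 0.703 RPKM in the female and 0.312, 0.832 and 0.414 RPKM in the male libraries.

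The cyclin E genes, which act with Cdk2 at the start of S phase, differed from each other in their pattern over libraries. Ccne2 had 6.04, 2.84 and 2.57 RPKM in the female libraries A, B and C, and 5.79, 2.49 and 4.599 RPKM in male A, B and C. It was high in the A library of each sex and in male C, and its counting intervals there did not meet those of the other 3 libraries. Ccne1 averaged 0.850 ± 0.206 RPKM (SD, n = 6) and was lowest in female A. The ratio of Ccne2 to Ccne1 therefore ran from 2.67 in female C to 11.1 in female A. The Ccne2 transcript is poor in G and C (36.3%), and 17.4% of its exonic bases are shared with the opposite-strand gene Ints8. Cdk2 averaged 1.67 ± 0.201 RPKM. E2f1, a transcription factor gene that drives S phase, had 0.319, 0.402 and 0.665 RPKM in the female and 0.391, 0.913 and 0.874 RPKM in the male libraries.

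Replication genes were present in each library, but the subunits of the MCM helicase were far from equal. The helicase is a ring of 6 different subunits, Mcm2 to Mcm7, that unwinds DNA at the fork. Mcm4 had 15.6, 14.0 and 10.7 RPKM in the female libraries A, B and C, and 12.6, 12.1 and 12.0 RPKM in male A, B and C. Mcm6 (ENSMUSG00000026355, chromosome 1, 128331590 to 128359664) had 13.2, 12.8 and 11.8 RPKM in the female and 9.73, 12.5 and 9.77 RPKM in the male libraries. The other subunit genes stood much lower.

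Mcm2, Mcm3, Mcm5 and Mcm7 averaged 2.34 ± 0.559, 2.26 ± 0.135, 2.15 ± 0.734 and 1.88 ± 0.316 RPKM (SD, n = 6). The libraries overlapped between these genes, although Mcm3 was higher than Mcm7 in each of the 6 libraries. The mean of Mcm4 and Mcm6 was 5.81 ± 1.19 times the mean of the other subunit genes, from 3.90 times in male C to 7.28 times in female B. The Mcm4 and Mcm6 transcripts have a GC content of 45.5 and 47.3%, and those of the other subunits 51.7 to 53.4%. The part of GC content in this ratio was not tested. No other gene shares exonic bases with Mcm4 or Mcm6 in the deposited annotation, while Mcm7, the lowest member of this role by mean RPKM, shares 12.6%. Mcm7 had 2.26, 1.74 and 1.96 RPKM in the female and 1.70, 1.43 and 2.19 RPKM in the male libraries.

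Rrm1 and Rrm2 encode the large and the small subunit of ribonucleotide reductase, which makes the DNA precursors. Rrm1 was the highest gene of the role, with 17.0, 13.4 and 12.7 RPKM in the female libraries A, B and C, and 15.5, 12.7 and 17.1 RPKM in male A, B and C. Rrm2, whose level follows S phase in dividing cells, had 9.98, 6.17 and 6.39 RPKM in the female and 6.92, 7.21 and 11.8 RPKM in the male libraries. Female A and male C were highest for both subunits. Pcna, the sliding clamp of the fork, had 11.9, 10.2 and 9.37 RPKM in the female and 12.6, 9.25 and 13.8 RPKM in the male libraries. Its copy Pcna-ps2 had 5 to 26 reads per library against 453 to 662 of Pcna, and how reads that match both were handled is not stated. Tyms, the thymidylate synthase gene, averaged 2.53 ± 0.644 RPKM.

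The wider replication list lay near the median of all genes. Over 40 other replication genes, all of them tested, the median of log2(RPKM + 0.1) was 2.00 ± 0.12, and 17 reached 5 RPKM. Orc6, a subunit of the origin recognition complex, led at 44.6 ± 7.70 RPKM, followed by Rfc2 of the clamp loader at 29.5 ± 3.64 RPKM (SD, n = 6).

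Mitotic genes were detected in all libraries at low levels. All 17 passed the filter, 7 with a mean below 1 RPKM and 10 between 1 and 5 RPKM. Top2a, the topoisomerase that untangles chromosomes (ENSMUSG00000020914, chromosome 11, 98992943 to 99024189), had 5.28, 2.80 and 2.99 RPKM in the female libraries A, B and C, and 2.79, 3.48 and 3.25 RPKM in male A, B and C. Cdk1, the kinase that starts mitosis, had 3.25, 3.05 and 2.64 RPKM in the female and 2.88, 3.50 and 4.24 RPKM in the male libraries. Ccnb2, a cyclin partner of Cdk1, had 3.15, 1.83 and 2.26 RPKM in the female and 2.16, 4.03 and 5.06 RPKM in the male libraries. The highest library thus changed from gene to gene: female A for Top2a and male C for Cdk1 and Ccnb2. The copy Ccnb2-ps had 31 to 75 reads per library against 69 to 149 of Ccnb2, and the handling of reads that match both is not stated.

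Mki67, the proliferation antigen gene (ENSMUSG00000031004, chromosome 7, 135689788 to 135716379), had 136, 50 and 57 reads in the female libraries A, B and C, and 57, 92 and 17 reads in male A, B and C. These gave 0.850, 0.203 and 0.237 RPKM in the female and 0.258, 0.381 and 0.114 RPKM in the male libraries. Female A stood at 3.56 times the mean of the other libraries, which was 0.239 ± 0.0969 RPKM (SD, n = 5). The exact 95% binomial interval was 0.713 to 1.01 RPKM in female A, above the 0.307 to 0.467 RPKM of male B, the next highest library. Such intervals cover at most counting error. They treat reads as independent, and amplified reads are not independent molecules, so they can be too narrow.

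Cenpf, a kinetochore gene and the lowest mitotic member by mean RPKM, followed the same pattern, with 0.588, 0.155 and 0.170 RPKM in the female and 0.157, 0.265 and 0.107 RPKM in the male libraries. Female A was 3.45 times the mean of the others for Cenpf, 1.72 times for Top2a and 1.74 times for the checkpoint kinase gene Bub1. In male C, Mki67 and Cenpf were at their lowest. By Dixon's gap test over the 6 libraries, 6 of the 42 members had a library that stood apart, against 7.93% of all tested genes. For 4 of them, Mki67, Cenpf, Top2a and Ccnb1, it was female A as the highest library, against 1.8% of all tested genes.

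**Figure D3:**
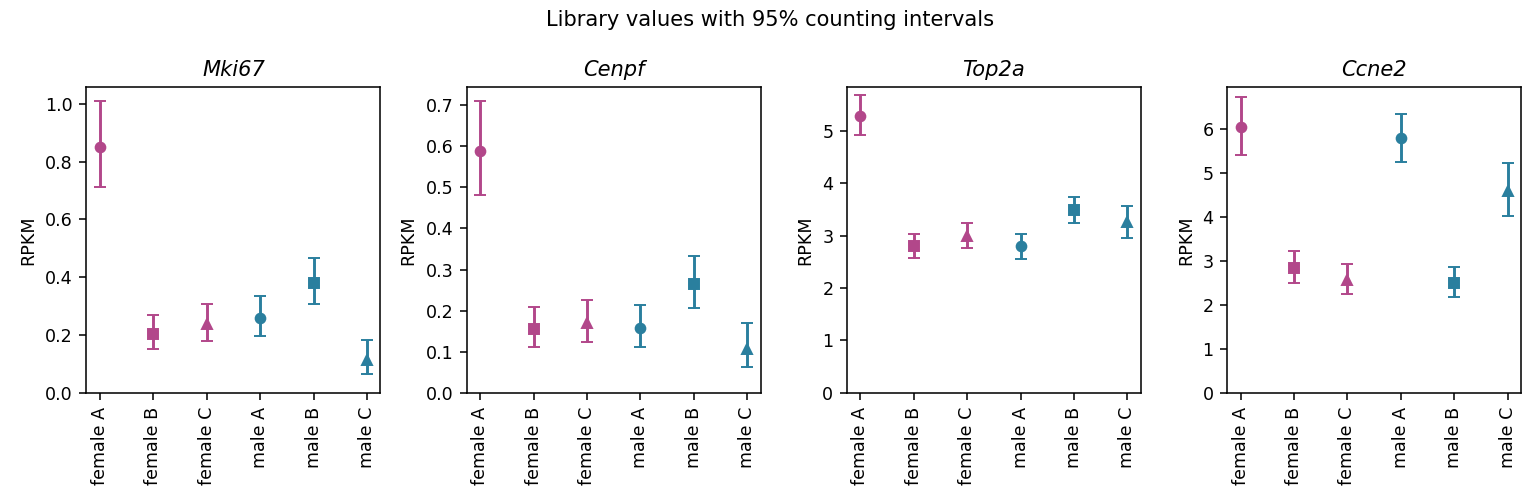
RPKM of Mki67, Cenpf, Top2a and Ccne2 in each library (vertical axes start at 0), with exact 95% binomial intervals for counting error as bars. Female A stands above the other 5 libraries for Mki67, Cenpf and Top2a, whereas Ccne2 is high in female A, male A and male C.

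The remaining mitotic members fell between these. Aurka and Aurkb, the Aurora kinase genes of the spindle and the chromosomal passenger complex, averaged 2.81 ± 0.373 and 1.31 ± 0.467 RPKM, and the passenger gene Birc5 1.57 ± 0.243 RPKM. The checkpoint kinase gene Bub1b and the centromeric histone gene Cenpa averaged 1.68 ± 0.203 and 1.78 ± 0.367 RPKM. Ube2c and Cdc20, which serve the anaphase-promoting complex, averaged 1.95 ± 0.763 and 0.716 ± 0.357 RPKM, and both were highest in male B. Ccnb1, Ccna2, Plk1 and Cenpe averaged 1.37 ± 0.216, 0.846 ± 0.159, 0.945 ± 0.173 and 0.396 ± 0.129 RPKM (SD, n = 6 throughout). Of the exonic bases of Ube2c 22.8% are shared with the opposite-strand gene Tnnc2, the highest share of any member. In all 11 of 42 members share some exonic bases with another gene.

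Over 45 other mitotic genes, 44 of them tested, the median of log2(RPKM + 0.1) was 1.07 ± 0.18, and 8 reached 5 RPKM. The leading genes were Cks1b, a CDK-binding subunit, at 28.8 ± 3.88 RPKM and the securin gene Pttg1 at 28.3 ± 2.03 RPKM (SD, n = 6). Subunits and activators of the anaphase-promoting complex, which also acts in neurons after division, stood higher: 12 of 17 reached 5 RPKM, with Anapc5 at 110.2 ± 17.8 RPKM and Anapc11 at 48.2 ± 6.19 RPKM. Among 25 other CDK and cyclin genes, 10 reached 5 RPKM, led by the transcription-linked cyclin genes Ccnh at 43.2 ± 6.36 and Ccnc at 34.6 ± 5.73 RPKM.

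**Figure D4:**
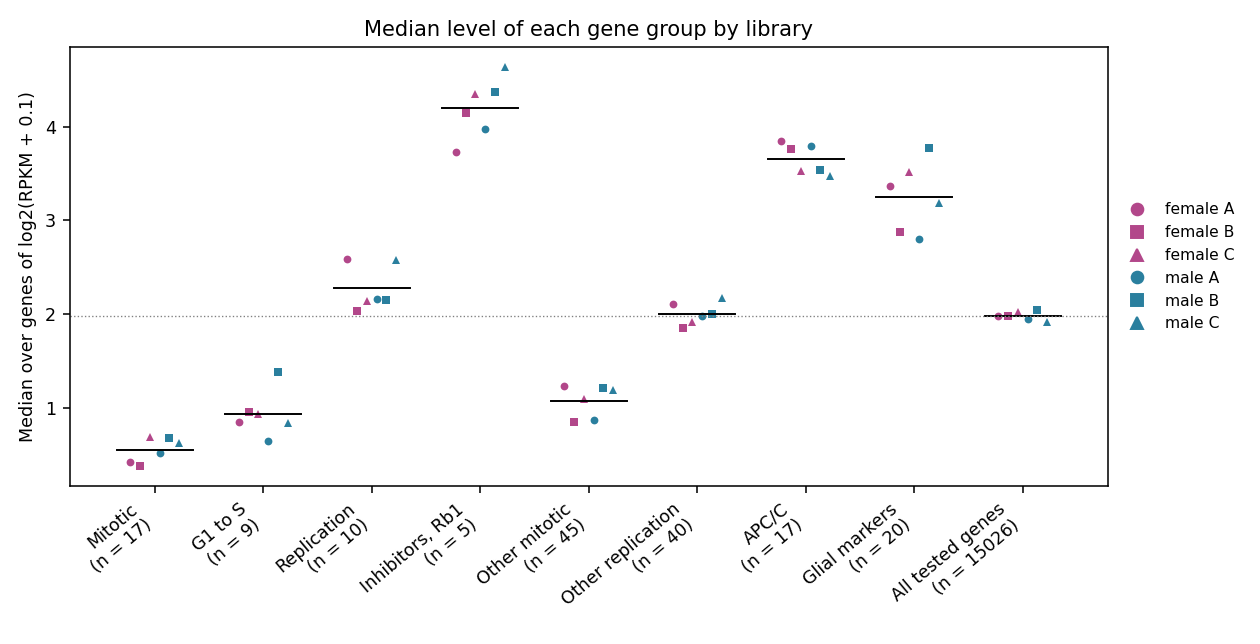
Median over genes of log2(RPKM + 0.1) in each library (points) for the member roles, 3 wider pathway lists, glial markers and all tested genes, with the mean of the 6 libraries as a bar and the level of all tested genes as a dotted line. The mitotic members average 0.55 and the restraining genes 4.20, on either side of 1.98 for all tested genes.

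Libraries differed in which roles stood highest in them. Female A held the highest value of 8 of 17 mitotic members (47.1%), against 19.8% of all tested genes, and of 4 of 10 replication members (40.0%). The other 6 replication members were highest in male C, which held the highest value of 22.7% of all tested genes. Male B held the highest value of 5 mitotic members (29.4%) and of 4 of 9 G1 and S phase regulators (44.4%), against 17.3% of all tested genes. By other summaries of the role male B was as high as female A: the median deviation of the 17 mitotic members from their 6-library means was 0.23 log2 units in male B and 0.22 in female A, and their summed level was 30.9 and 29.7 RPKM. The median mitotic level on the log2(RPKM + 0.1) scale, 0.42 in female A, was the lowest but for female B at 0.37. In the wider list of 45 other mitotic genes female A was highest by that median, at 1.23 against 1.21 in male B. It was also highest there by summed level, at 192 RPKM against 188 in male C and 171 in male B. Female B held the lowest value of 6 mitotic members, against 12.0% of all tested genes, and the highest of none. Since members of a role are not independent, these shares are descriptions. Without female A, male B held the highest value of 11 mitotic members, and without male C, the single-embryo library, female A held that of 7 replication members.

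The mitotic members highest in female A were Mki67, Top2a, Birc5, Bub1, Cenpa, Cenpe, Cenpf and Ccnb1, with a transcript GC content of 41.0 to 48.7%. Those highest in male B were Bub1b, Aurkb, Ube2c, Cdc20 and Ccna2, with 46.1 to 55.6%. GC content moved with the libraries over all genes: the 4980 tested genes of lowest GC content (28.7 to 46.3%) lay, by their median, 0.21 log2 units above their 6-library mean in female A and at -0.14 in male B. With each library's trend on GC content removed, female A held the highest value of 7 mitotic members and male B of 6, but not of the same genes. Bub1 and Cenpe were then highest in male B, at 0.51 and 0.39 log2 units above their 6-library means against 0.36 and 0.22 in female A, and Bub1b was highest in female A. Mki67 then deviated by 1.19 in female A, against 1.28 before, Cenpf by 0.94 against 1.14 and Top2a by 0.45 against 0.64 (log2 units above the 6-library mean). Gene length also moved with the libraries. The 5008 longest tested genes (4847 bases or more) lay, by their median, at 0.08 log2 units in female A and -0.10 in male C. Mki67, Top2a, Cenpe and Cenpf, at 7813 to 11353 bases, are among these. The other mitotic members highest in female A had 2503 to 4354 bases. No length trend was removed, and its part was not tested.

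Marker sums in female A were 1075 RPKM for the glial list and 20.1 RPKM for the endothelial and mural list, both within the range of the other libraries. The fibroblast and meningeal sum was highest in female A at 194 RPKM, against 157 to 183 RPKM elsewhere. That sum rests largely on the highest gene of the list, with a mean of 133 RPKM, while 6 of the 12 genes had means below 1 RPKM. By the list's median of log2(RPKM + 0.1), male B was highest at 0.71, against 0.46 in female A. Of the 20 glial markers 3 were highest in female A and 11 in male B. The part of these cells in the mitotic levels was not tested.

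**Figure D5:**
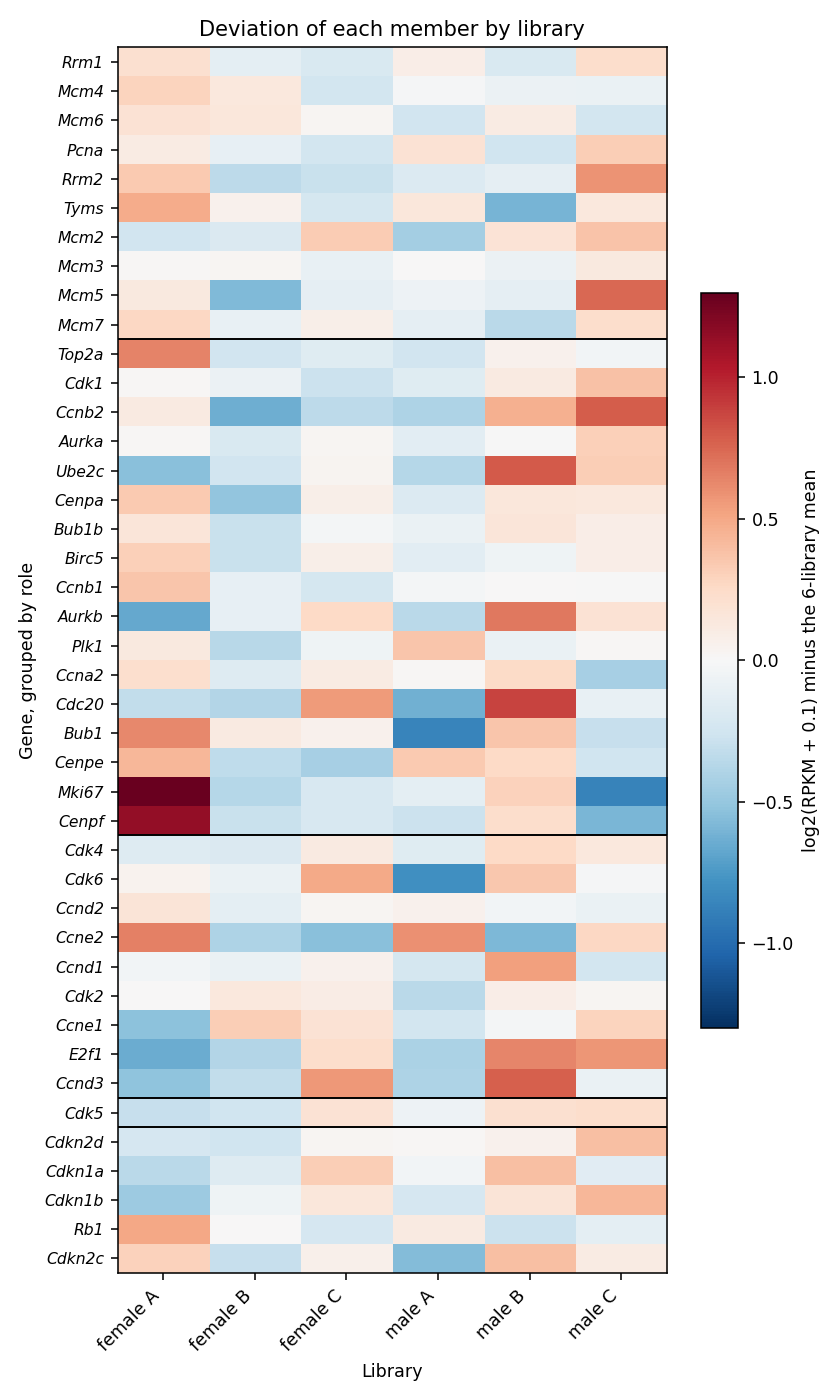
Difference of each member's log2(RPKM + 0.1) from its mean over the 6 libraries (colour, log2 units), with genes in rows grouped by role and libraries in columns. Mki67 and Cenpf stand out in female A at 1.28 and 1.14 log2 units, and Aurkb, Ube2c and Cdc20 are highest in male B.

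Variation between libraries of the same sex was measured by the biological coefficient of variation from edgeR, the relative spread beyond counting error. It ran from 0.168 for Cdkn2d to 0.496 for Mki67, with medians of 0.226 for replication, 0.276 for mitotic and 0.264 for G1 and S phase members, beside 0.238 for all tested genes. The value expected at a gene's abundance was exceeded by 17 of 42 members (40.5%), against 31.5% of all tested genes. Mki67, at 0.496 against an expected 0.322, and Cenpf, at 0.464 against 0.333, varied most.

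No member passed the test between female and male libraries. The test was edgeR's quasi-likelihood test over all 15026 tested genes with Benjamini-Hochberg adjustment, which called 0.0333% of them and 0 of the 42 members. Of the members 0 had an unadjusted p below 0.05, against 1.10% of all tested genes, and DESeq2 and limma-voom also called 0. For none of the 42 did the 3 female libraries lie wholly above or below the 3 male libraries, which was so for 5.70% of all tested genes. The members' log2 fold changes, female over male, ran from -0.64 to 0.75, with a median of -0.09. They were positive for 16 of 42, against 49.1% of all tested genes, and for 9 without female A. The libraries were pools, apart from the single embryo of male C, and the labels do not tie them to litters, so these p-values measure the spread between such pools.

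The member of smallest p was Cdkn2d, at 135 ± 14.8 RPKM in female and 168 ± 25.03 RPKM in male libraries (SD, n = 3), and its log2 fold change, female over male, was -0.32 (standard error 0.17; edgeR, unadjusted p = 0.0927, adjusted p = 0.9997). Ccnb2 was the mitotic member of smallest p, at 2.41 ± 0.671 RPKM in female and 3.75 ± 1.47 RPKM in male libraries, with a log2 fold change of -0.64 (standard error 0.36). For the other roles the members of smallest p were Mcm6 at 0.24 (standard error 0.17), E2f1 at -0.63 (0.44) and Cdk5 at -0.24 (0.18). Leaving out 1 library at a time kept the sign of each of these 5 values and moved them by over 1.5 times: Cdkn2d to -0.19 without male C, Ccnb2 to -0.37 without male C, Mcm6 to 0.37 without male B, E2f1 to -0.99 without female C and -0.42 without male B, and Cdk5 to -0.42 without female C and -0.15 without female A. For Mki67 the value was 0.74 (standard error 0.59), and it became -0.21 without female A. For Cenpf it was 0.75 (0.55) and became -0.13 without that library.

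Among the 170 listed genes of the wider cell cycle pathways, 162 were tested and 0 were called by edgeR, DESeq2 or limma-voom. By edgeR 1 of them, Cdk5rap1, had an unadjusted p below 0.05 (0.0409), against 1.10% of all tested genes.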

How the data were processed

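RNA of sorted ganglion cells was sequenced in 3 female and 3 male libraries. Per the labels' protocols, cDNA was made from 10 ng of RNA with SMARTer chemistry and amplified by PCR. The authors deposited a read count, a CPM and an RPKM per gene. Counting used featureCounts 1.4.5 of Subread on build GRCm38.p2, per the submitters' processing notes. No source used here gives the aligner settings, strand setting or annotation release. Both deposited CPM and deposited RPKM were recomputed from the counts, the library totals and the gene lengths, with 0 mismatches. Symbols came from a reference table of gene names (97.26% of identifiers matched).

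RPKM was recomputed from the counts with TMM library sizes (edgeR 4.0.16, R 4.3.3), and group levels used log2(RPKM + 0.1). Genes were filtered with filterByExpr, and sexes were compared by edgeR's quasi-likelihood test over all tested genes, adjusted by Benjamini-Hochberg at 0.05 and two-sided. DESeq2 1.42.0 and limma 3.58.1 (voom) were alternatives. The edgeR step was tested on simulated data. GC content was that of the longest GENCODE transcript (99.4% of tested genes), and its trend was removed by lowess with a span of 0.3, an alternative added after the data were seen, as were those leaving out a library for library order. The members, lists and tests were chosen with earlier results of these data known, so no test over a list was made. By the rule for named genes, each role's 3 highest members, its lowest, its member of smallest p for sex, Mki67, Top2a, Pcna, Cdk5 and the inhibitors are given per library, with the 2 highest genes of each wider list; any further gene was picked with its values in view.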

Additional observations from a re-analysis of the deposited data

Results flagged for a closer look

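With the 6 libraries taken as 1 population, each member's highest and lowest library was set against the others by Dixon's gap test (critical value 0.625 for 6 libraries). Chance flags about 1 in 20 such groups. Female A stood apart from the rest as the highest library for 4 mitotic genes: Mki67 at 0.850 RPKM, Top2a at 5.28 RPKM, Cenpf at 0.588 RPKM and Ccnb1 at 1.78 RPKM. Male B stood apart as the highest library for the D cyclin gene Ccnd1 at 2.545 RPKM. Male A stood apart as the lowest library for Cdk2 at 1.28 RPKM. These are 6 of the 42 members examined, against 7.93% of the 15026 tested genes. Female A stood apart as the highest library for 4 members, against 1.8% of all tested genes.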

How the results depend on the processing

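Over the alternatives run, the count of members called between sexes stayed at 0. The count over all genes was 5, and it was 12 without the filter on low counts and 5 to 7 otherwise. Mki67 and Cenpf changed the sign of their sex difference without female A, to log2 folds of -0.21 and -0.13; leaving out 1 library at a time, they ran from -0.21 to 1.16 and from -0.13 to 1.17. With CPM in place of RPKM the restraining genes lay 4.23 log2 units and the replication genes 2.03 log2 units above the mitotic genes. With a pseudocount of 1 these differences were 3.03 and 1.302. Taking means of members rather than medians, the restraining genes lay 3.19 above the mitotic and 1.18 above the replication genes, and the G1 and S phase regulators 1.06 above the mitotic genes. These role differences were computed from the same counts, so their shifts follow from the scale or summary used. Without male C, female A held the highest value of 7 replication members in place of 4, and without female A, male B held that of 11 mitotic members in place of 5, since the library left out had held the others. Whether the letters A, B and C pair the libraries is not stated in the labels. Deviations of same-lettered libraries from their sex means correlated at 0.284, -0.294 and -0.077, and those of differently lettered libraries at -0.484 to 0.549. Such deviations sum to 0 within a sex, so these correlations cannot decide whether a letter marks a shared litter or batch. With the letter as a block 5 genes and 0 members were called. Members with few reads, such as Cdkn2c, are limited by depth: a count of 0 would allow up to 0.191 CPM in male C.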
